A study of Mus musculus with 24 samples.

Results

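The receptors for the colony-stimulating factors, the receptor ligand Csf1 and the gene of the macrophage surface antigen F4/80 were followed across sorted macrophages of 2 tissues. They are 7 named genes, Csf1r, Csf2ra, Csf2rb, Csf2rb2, Csf3r, Csf1 and Adgre1, of 41388 in the count table. All 7 were found and all 7 passed the filter on low counts in every comparison. The macrophages were sorted in bulk from the dura mater (the tough outer layer of the meninges) and from the diaphragm. Per the labels, the mice were perfused wild-type C57BL/6 animals, 17 weeks old, at steady state, and all groups compared here share this genotype, age and state. The series title names RAG-1 deficient mice given T cells, which the sample labels do not. The labels give 3 macrophage subsets (C1, C2 and C3) per tissue, with 3 samples each in dura and 5 in diaphragm. The markers of the sort are not stated in the sources used here, and the table's columns match no subset. Dura columns carry the marks P4, P5 or P6 and a number (1, 3 or 4), and diaphragm columns carry only numbers.

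Colony-stimulating factors are secreted proteins that keep myeloid cells alive and direct their growth and differentiation. CSF1R is a receptor tyrosine kinase that binds CSF1 and interleukin-34, and tissue macrophages, microglia and osteoclasts depend on it. The receptor of GM-CSF, the product of Csf2, joins a specific alpha chain, encoded by Csf2ra, to the common beta chain, encoded by Csf2rb, and signals through the kinase JAK2 and STAT5. The mouse has a second beta chain gene, Csf2rb2, whose product serves interleukin-3. CSF3R binds G-CSF, the product of Csf3, and is best known from neutrophils. F4/80, encoded by Adgre1, is an adhesion G protein-coupled receptor long used as a surface marker of mouse macrophages.

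After 6 pairs of repeat runs were summed and 2 near-empty diaphragm columns were left out, 9 dura libraries held 10457920 to 24077834 counts and 7 diaphragm libraries held 11053351 to 30132295. The dura libraries were 3 per mark. The labels do not say that libraries came from separate animals, so p-values measure the spread between these libraries, which may be technical, and a difference between tissues cannot be told apart from one between their batches. Diaphragm libraries fell into the sets 1 and 7, 2 and 8, and 3, 6 and 9. These sets are not tied to subsets by the labels and were known from earlier results, so their values are described with no test. The 12 macrophage markers, among them Cd68, C1qa and Mertk, were detected in every set of libraries, with a summed level of 27028 to 36395 CPM (counts per 1000000, after TMM scaling of the libraries).

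Csf1r was the most abundant member in every library, and Csf1 had the lowest mean in both tissues. Per kilobase of annotated exon, the mean of Csf1r ± SD was 901 ± 166 CPM over the 9 libraries of dura and 668 ± 135 over the 7 of diaphragm. Adgre1 followed at 545 ± 60.5 CPM per kilobase in dura and 402 ± 93.1 in diaphragm. The third was Csf2ra, with 60.7 ± 27.4 CPM per kilobase in dura and 103 ± 47.6 in diaphragm. These leading members were each separated from the next by more than the spread in both tissues, so the receptor of CSF1 was far above the receptor chains of GM-CSF and G-CSF on a scale that allows genes to be compared. The next 3 genes lay close together. In dura the levels per kilobase were 19.8 ± 2.63 CPM for Csf3r, 16.8 ± 1.58 for Csf2rb and 13.4 ± 1.83 for Csf2rb2. In diaphragm they were 21.0 ± 7.01 CPM for Csf2rb, 15.8 ± 3.21 for Csf2rb2 and 11.6 ± 3.10 for Csf3r. For neighbours among these 3, the ranges of mean ± SD overlapped in both tissues, though barely for Csf2rb and Csf2rb2 in dura. These SDs are between libraries and leave out that the genes were measured in the same libraries, so they settle no order. By mean, Csf3r stood first in dura and last in diaphragm. Csf1 had the lowest mean, at 2.66 ± 1.51 CPM per kilobase in dura and 5.24 ± 3.35 in diaphragm.

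**Figure D1:**
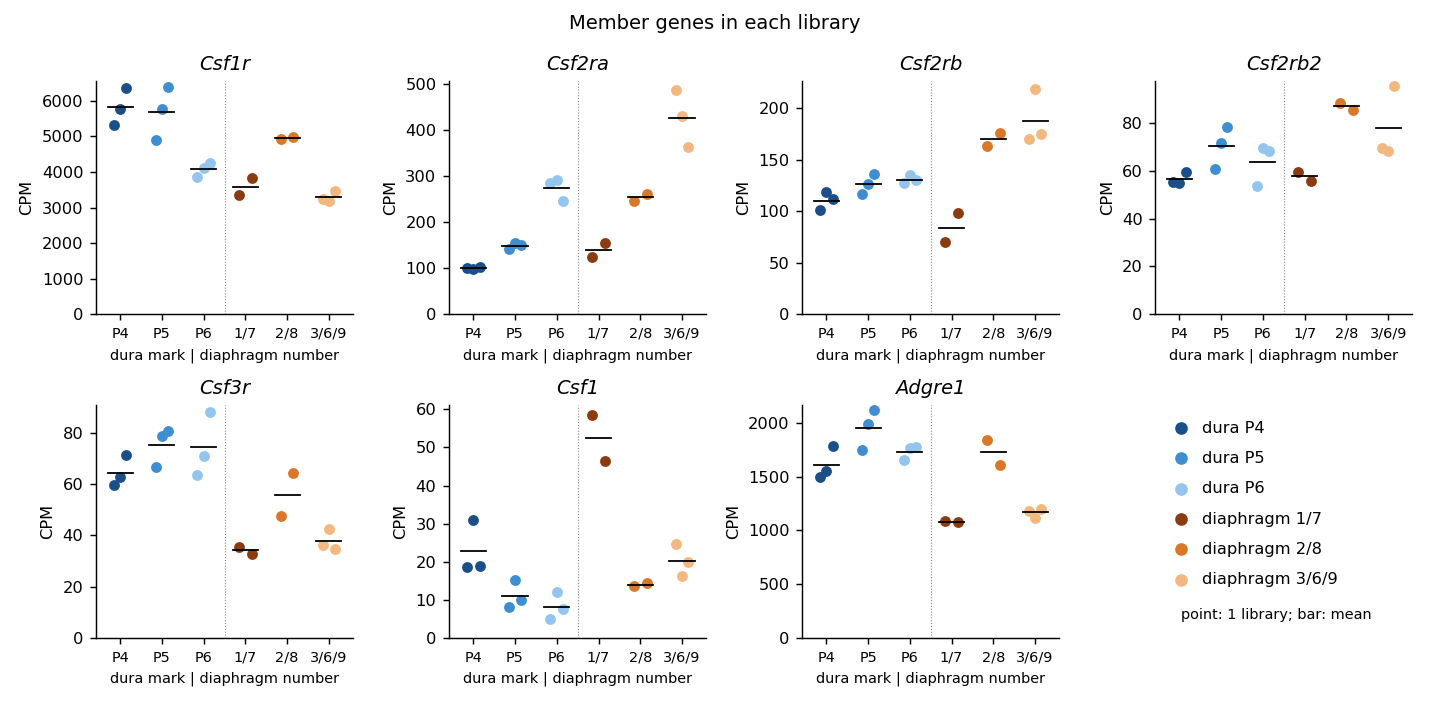
Level of each member in CPM (vertical axes, starting at 0) in every library, by dura mark and diaphragm number. Points are libraries and bars are means. Csf2ra rises from P4 to P6, Csf1r is lower at P6, and Csf1 is highest in diaphragm libraries 1 and 7.

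Csf1r (ENSMUSG00000024621) lies on GRCm38 chromosome 18, 61100598 to 61132149, plus strand. Its exons overlap those of Hmgxb3 on the other strand over 873 of 5774 bases, and reads there cannot be told apart because the kit does not keep the strand. Csf1r was the member with the highest counts, at 31365 to 156971 per library.

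Csf1r was lower in the dura libraries marked P6 than in those marked P4 or P5, and its RNA was abundant in all of them. The libraries numbered 1, 3 and 4 held 5328, 5776 and 6364 CPM at P4. At P5 they held 4909, 5784 and 6397 CPM, and at P6 3872, 4117 and 4266 CPM. All P6 libraries were below all others of dura, while P4 and P5 overlapped. From P4 to P6, Csf1r fell by 0.50 in log2 units (SE 0.09, edgeR adjusted p = 0.00127) and by 0.48 from P5 to P6 (SE 0.09, edgeR adjusted p = 0.00406). Between P4 and P5 the log2 difference was -0.03 (SE 0.09, edgeR adjusted p = 0.924). In sorted cells in bulk, fewer cells with the transcript and less of it per cell cannot be told apart. Without the libraries numbered 3, the call between P5 and P6 was lost (edgeR adjusted p = 0.0761), with a log2 difference of -0.48.

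In diaphragm, Csf1r was at 3357 and 3822 CPM in libraries 1 and 7. It reached 4927 and 4989 CPM in libraries 2 and 8, and 3231, 3466 and 3188 in libraries 3, 9 and 6. Libraries 2 and 8 were the highest of this tissue and the other sets overlapped. Across tissues, the 9 dura libraries ranged from 3872 to 6397 CPM with a median of 5328, and the 7 diaphragm libraries from 3188 to 4989 with a median of 3466. The tissues overlapped. Csf1r was higher in dura, with a log2 difference of 0.43 (SE 0.15, edgeR adjusted p = 0.0396). This call was lost when any 1 of the P4 or P5 libraries, or any of diaphragm libraries 1, 3, 6 and 9, was left out, with edgeR adjusted p from 0.0514 to 0.0805. It held in 14 of 29 settings, and was also lost with no filter on low counts (edgeR adjusted p = 0.0717) and with dura summed per number (edgeR adjusted p = 0.193).

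Over the 16 libraries, the 3 genes whose levels followed Csf1r most closely were Idua, which encodes a lysosomal enzyme (Pearson r = 0.965 on log2(CPM + 1)), the sialic acid receptor gene Cd22 (0.963) and the lysosomal phospholipase gene Pla2g15 (0.96). They were ranked among the 6496 genes that averaged 20 CPM or more. The 16 libraries share their tissue and mark differences, so these values describe likeness across those groups.

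**Figure D2:**
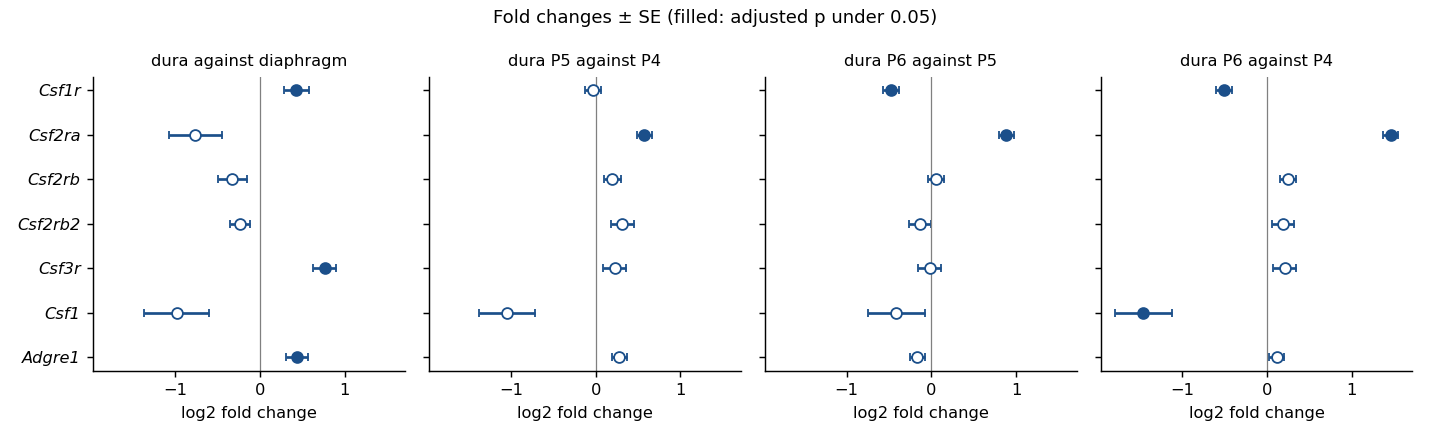
Fold changes of the 7 members on the log2 scale (horizontal axes), with bars of 1 SE, for the comparison of tissues and the 3 comparisons of dura marks, where the first group named minus the second is shown. Filled points passed an edgeR adjusted p of 0.05. Csf2ra has the most positive fold change in each comparison of marks, and Csf1 the most negative between P5 and P4 and between P6 and P4.

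Of the 7 members, 3 were called between tissues (Csf1r, Csf3r and Adgre1), against 26.4% of the 13136 genes tested. Of 13239 genes tested in dura, 7.35% were called between P5 and P4, 17.4% between P6 and P5 and 33.3% between P6 and P4. The members called in these comparisons were Csf2ra alone, Csf2ra and Csf1r, and Csf2ra, Csf1r and Csf1. Libraries of the tissues did not overlap in 6.91% of genes and in 0 of 7 members. Between P5 and P4, 3 of 7 members did not overlap and 25.9% of genes. Between P6 and P5 it was 2 of 7 members and 36.0% of genes, and between P6 and P4 it was 4 of 7 members and 46.7% of genes. With so few members, these shares do not set the members apart from the background. The 3 comparisons of marks share libraries and are not independent of one another.

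The ligand gene Csf1 (ENSMUSG00000014599, GRCm38 chromosome 3, 107741048 to 107760469, minus strand) was low in all libraries and fell from P4 to P6. The P4 libraries numbered 1, 3 and 4 held 18.6, 30.9 and 18.9 CPM. Those marked P5 held 8.12, 15.1 and 9.86 CPM, and those marked P6 5.02, 12 and 7.66. P4 lay above both other marks in every library, and P5 and P6 overlapped. From P4 to P6, Csf1 fell by 1.46 in log2 units (SE 0.34, edgeR adjusted p = 0.00523). From P4 to P5 the log2 difference was -1.05 (SE 0.33, edgeR adjusted p = 0.0826), and it passed with DESeq2 (adjusted p = 0.0228) and limma-voom (adjusted p = 0.0283). That step also passed with the number as a block in the fit. From P5 to P6 it was -0.41 (SE 0.34, edgeR adjusted p = 0.467).

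In diaphragm, Csf1 was highest in libraries 1 and 7, with 58.5 and 46.4 CPM. Libraries 2 and 8 held 13.7 and 14.3 CPM, and libraries 3, 9 and 6 held 24.7, 19.9 and 16.3. Libraries 1 and 7 stood above every other library of either tissue. Over the tissues, dura ranged from 5.02 to 30.9 CPM with a median of 12 and diaphragm from 13.7 to 58.5 with a median of 19.9. The log2 difference, dura minus diaphragm, was -0.98 (SE 0.38, edgeR adjusted p = 0.0689). Without diaphragm libraries 1 and 7 it was -0.35 (edgeR adjusted p = 0.457), while without the dura library numbered 3 at P4 it was -1.22 and passed (edgeR adjusted p = 0.0222). Without diaphragm library 2 it was -1.10, with an edgeR adjusted p of 0.05 after rounding. It passed without all P4 libraries (-1.53, edgeR adjusted p = 0.0134) and with DESeq2 (-0.99, adjusted p = 0.0385).

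Fibroblast transcripts were highest in each tissue where Csf1 was highest, at P4 in dura and in diaphragm libraries 1 and 7. The 8 fibroblast markers, led by the collagen gene Col1a1, were all detected in every set of libraries. Their sum was 2063 to 3743 CPM at P4, 584 to 772 at P5 and 251 to 390 at P6. In diaphragm it was 15652 and 7565 CPM in libraries 1 and 7, 518 to 833 in libraries 2 and 8, and 294 to 746 in libraries 3, 6 and 9. Among these remaining libraries it did not follow Csf1. Libraries 2 and 8 held the least Csf1 of that tissue, yet libraries 6 and 9 had lower fibroblast sums, at 294 and 375 CPM. The sum of the 7 endothelial markers was 805 and 817 CPM in diaphragm libraries 1 and 7. It was 401 and 439 in libraries 2 and 8, where Csf1 was lowest in that tissue. Libraries 3, 6 and 9 held 20.1 to 121 CPM of it, and dura 12.1 to 150. Cdh5 made up 27.1% of the sum in libraries 1 and 7 and 89.5% in libraries 2 and 8. Between these sets mean Cdh5 went from 220 to 376 CPM. The means of all other markers on the list were lower in libraries 2 and 8, such as Kdr (171 to 13.7) and Tie1 (168 to 9.82). The sum of the 11 mast cell, basophil and eosinophil markers was 113 and 171 CPM in libraries 1 and 7, 92.0 in library 6 and 5.73 to 21.5 in the other diaphragm libraries. In dura it was 38.7 to 170 CPM at P4 and 4.23 to 33.9 at P5 and P6. The part of other cells in the Csf1 values was not tested. The 3 genes most like Csf1 over the 16 libraries were Il6st, encoding the shared receptor subunit gp130 (r = 0.937), the secreted protease gene Htra3 (0.919) and Col3a1, a collagen gene on the fibroblast list (0.911).

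**Figure D3:**
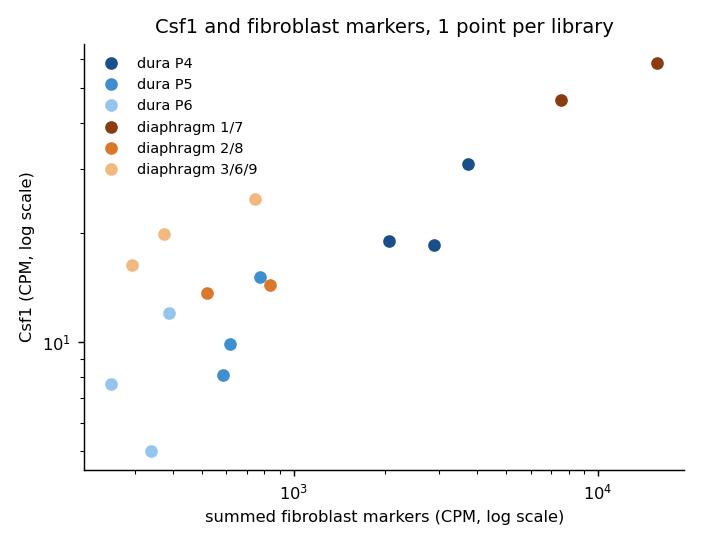
Csf1 in CPM (vertical, log scale) against the summed level of 8 fibroblast markers in CPM (horizontal, log scale), with 1 point per library coloured by group. Diaphragm libraries 1 and 7 lie at the upper right, with 58.5 and 46.4 CPM of Csf1, and P4 has the highest Csf1 of the dura marks.

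The other ligands of these receptors were scarce. Il34, the second ligand of CSF1R, averaged 2.16 CPM in dura and 3.08 in diaphragm and was not called between tissues (log2 difference -0.52, SE 0.79, edgeR adjusted p = 0.67). It was highest in diaphragm libraries 1 and 7, at 9.08 and 6.81 CPM, as Csf1 was, and had 0 counts in libraries 6 and 9. Csf2, the GM-CSF gene, averaged 0.433 CPM in dura and 3.62 in diaphragm, and was lower in dura by a log2 difference of -3.03 (SE 0.65, edgeR adjusted p = 0.00239). It had 63 counts over all dura libraries and 584 over the diaphragm libraries. Csf3, the G-CSF gene, averaged 0.523 CPM in dura, with a range of 0 to 0.95, and 7.09 in diaphragm, with a range of 3.42 to 11.9. Its log2 difference was -3.76 (SE 0.70, edgeR adjusted p = 0.000861), and no diaphragm library overlapped with dura. Of the ligands, Csf2 and Csf3 thus passed the test between tissues, and neither was above 12 CPM in a library. Il3 and Il5, which encode ligands of receptors with the common beta chain, had no counts in any of the 16 libraries. A total of 0 allows up to 0.0233 CPM over the dura libraries and 0.0189 over the diaphragm libraries, taking 3 counts as the limit and counting error alone.

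Csf2ra (ENSMUSG00000059326, GRCm38 chromosome 19, 61223957 to 61228429, minus strand), the specific chain of the GM-CSF receptor, had the clearest differences of the 7 genes between the dura marks. RefSeq promoter entries (250 bases before to 50 after the start, GRCm38.p6) were given for Csf2ra, Csf1, Csf3r and Csf2rb2. The entries of the members that moved in opposite directions between P4 and P6 are shown here, at chr19:61228369-61228668 for Csf2ra and chr3:107760420-107760719 for Csf1, both on the minus strand. Capitals mark GAGGAAG, a core preferred by the myeloid factor PU.1, searched on both strands:
Csf2ra: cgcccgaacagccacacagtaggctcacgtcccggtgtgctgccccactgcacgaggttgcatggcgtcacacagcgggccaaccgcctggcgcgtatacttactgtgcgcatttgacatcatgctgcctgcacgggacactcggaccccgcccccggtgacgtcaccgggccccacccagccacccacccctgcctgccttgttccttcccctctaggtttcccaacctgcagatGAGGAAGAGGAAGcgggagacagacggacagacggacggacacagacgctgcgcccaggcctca
Csf1: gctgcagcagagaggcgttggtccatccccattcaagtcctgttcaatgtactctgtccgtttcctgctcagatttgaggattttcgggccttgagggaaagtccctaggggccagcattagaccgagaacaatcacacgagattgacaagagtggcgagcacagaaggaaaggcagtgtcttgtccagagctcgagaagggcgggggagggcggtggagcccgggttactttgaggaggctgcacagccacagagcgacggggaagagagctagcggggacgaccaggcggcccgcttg
The Csf2ra entry holds 2 overlapping matches on its own strand and the Csf1 entry holds 0. Csf3r has 1 match on its own strand and Csf2rb2 has 2 on the other. Of 32851 promoters in the table, 13.6% hold at least 1 match. A match describes these letters alone. Spi1, which encodes PU.1, was at 321 ± 28.3 CPM (SD, n = 3) at P4 and 424 ± 20.8 at P6, a log2 difference of 0.41 (SE 0.09, edgeR adjusted p = 0.00416).

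Csf2ra rose at each step between the marks. The P4 libraries numbered 1, 3 and 4 held 101, 97.1 and 102 CPM. Those at P5 held 141, 155 and 150 CPM, and those at P6 held 284, 292 and 246. No library of a mark overlapped with another mark. The log2 difference was 0.57 from P4 to P5 (SE 0.09, edgeR adjusted p = 0.00215), 0.88 from P5 to P6 (SE 0.09, edgeR adjusted p = 3.5e-05) and 1.46 from P4 to P6 (SE 0.09, edgeR adjusted p = 2.74e-07). Without the libraries numbered 3, the call between P4 and P5 was lost (edgeR adjusted p = 0.0959), with a log2 difference of 0.53. The other 2 calls held in all 11 settings tried.

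Diaphragm libraries spanned a wider range of Csf2ra. Libraries 1 and 7 held 124 and 155 CPM, libraries 2 and 8 held 247 and 261, and libraries 3, 9 and 6 held 486, 363 and 430. The sets did not overlap, and libraries 3, 6 and 9 were above every dura library. Over the tissues, dura ranged from 97.1 to 292 CPM with a median of 150 and diaphragm from 124 to 486 with a median of 261. The log2 difference, dura minus diaphragm, was -0.76 (SE 0.31, edgeR adjusted p = 0.0802). It passed without diaphragm library 1 (-0.88, edgeR adjusted p = 0.0387), without diaphragm libraries 1 and 7 (-1.04, edgeR adjusted p = 0.0129) and without the P6 library numbered 1 or 3 (edgeR adjusted p = 0.0488 and 0.045). Without all P6 libraries it was -1.23 (edgeR adjusted p = 0.00713), and with DESeq2 -0.77 (adjusted p = 0.0386).

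Csf1r and Csf2ra moved apart across the dura marks. The ratio of their CPM in a library was 52.7 to 62.4 at P4, 34.8 to 42.5 at P5 and 13.6 to 17.3 at P6. In diaphragm it was 27.1 and 24.6 in libraries 1 and 7, 19.99 and 19.1 in libraries 2 and 8, and 6.64, 9.54 and 7.41 in libraries 3, 9 and 6. The ratio thus fell from P4 to P6, and diaphragm libraries 3, 6 and 9 had the lowest values, with no overlap between sets of a tissue. P6 lay between libraries 2 and 8 and libraries 3, 6 and 9. It is not scaled by gene length and is read between libraries, not between genes.

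**Figure D4:**
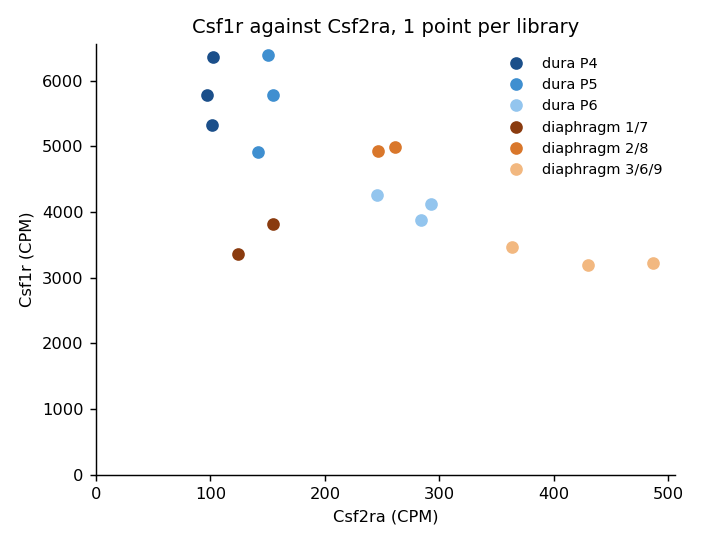
Csf1r (vertical) against Csf2ra (horizontal), both in CPM with axes from 0, with 1 point per library coloured by group. Dura runs from P4 at 97.1 to 102 CPM of Csf2ra to P6 at 246 to 292, with lower Csf1r at P6, and diaphragm libraries 3, 6 and 9 lie farthest right.

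Monocyte transcripts moved with Csf2ra. The 8 monocyte markers were detected in every set, and their sum was 66.4 to 148 CPM at P4, 283 to 326 at P5 and 1590 to 1751 at P6. In diaphragm the sum was 166 CPM in both libraries 1 and 7, 255 and 296 in libraries 2 and 8, and 968 to 1278 in libraries 3, 6 and 9. The chemokine receptor gene Ccr2 made up 92.9% of the sum at P6 and 57.2% at P4. Ccr2 itself was at 33.2 to 104 CPM at P4 and 1458 to 1639 at P6. The summed level of the 8 dendritic cell markers was 755 to 844 CPM at P4 and 244 to 311 at P6, of which Clec10a, a lectin gene that macrophages also express, made up 86.5% and 63.3%. The other genes of that list were split. Flt3 was at 0.313 to 1.77 CPM at P4 and 8.29 to 12.8 at P6, and Xcr1 at 0 and 1.55 to 1.64. Means of Clec9a were 1.37 and 16.4 CPM, and those of Ccr7 0.129 and 4.43. Means were lower at P6 for Zbtb46 (13.2 CPM at P4 and 3.83 at P6), Cd209a (91.9 and 65.6) and Itgae (0.125 and 0.0448). In diaphragm the sum was higher where Csf2ra was higher, at 200 to 288 CPM in libraries 1 and 7, 415 to 439 in libraries 2 and 8, and 631 to 847 in libraries 3, 6 and 9. The part of monocytes or dendritic cells in the Csf2ra values was not tested.

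Csf2rb (ENSMUSG00000071713, GRCm38 chromosome 15, 78325752 to 78353847, plus strand), the common beta chain, and Csf2rb2 (ENSMUSG00000071714, chromosome 15, 78282507 to 78305721, minus strand), the chain for interleukin-3, are near-identical neighbours, so reads can be shared between them. Their coding sequences of 2688 and 2634 bases were 95.2% identical over 2628 aligned bases, with an identical run of 242 bases. Of the 75-base windows along the coding transcripts, the length of a read, 9.97% of those of Csf2rb and 10.9% of those of Csf2rb2 occurred in the other gene. The sources used here do not say how such reads were counted, and the split between the genes is uncertain to that extent. The 75 coding bases in which the genes differ most, by 14 bases, show what separates their reads, with the differences in capitals, at chr15:78338905-78338979 (plus strand) and chr15:78294352-78294426 (minus strand):
Csf2rb: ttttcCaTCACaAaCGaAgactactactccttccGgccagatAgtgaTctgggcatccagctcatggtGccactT
Csf2rb2: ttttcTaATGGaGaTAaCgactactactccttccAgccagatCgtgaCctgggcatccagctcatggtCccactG

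Csf2rb varied little in dura and more in diaphragm. The libraries numbered 1, 3 and 4 held 101, 118 and 111 CPM at P4. They held 116, 126 and 136 CPM at P5 and 127, 135 and 130 at P6. P6 lay above P4 in every library, but the log2 difference of 0.25 (SE 0.10, edgeR adjusted p = 0.0635) did not pass. It passed with DESeq2, where the log2 difference was 0.25 (adjusted p = 0.0436), and with the number as a block in the fit. Differences of 0.20 from P4 to P5 (edgeR adjusted p = 0.287) and 0.05 from P5 to P6 (edgeR adjusted p = 0.78) did not pass. In diaphragm, libraries 1 and 7 held 69.8 and 98.3 CPM, below every dura library. Libraries 2 and 8 held 163 and 176 CPM, and libraries 3, 9 and 6 held 170, 175 and 219, above every dura library.

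Because diaphragm libraries stood on both sides of dura, the tissue difference in Csf2rb depended on them. Dura ranged from 101 to 136 CPM with a median of 126 and diaphragm from 69.8 to 219 with a median of 170. The log2 difference over all libraries was -0.32 (SE 0.17, edgeR adjusted p = 0.187). Leaving out diaphragm library 1 gave -0.44 (edgeR adjusted p = 0.0202). Leaving out 7 as well gave -0.57 (edgeR adjusted p = 0.000379). The genes closest to Csf2rb across the 16 libraries were Snd1 (r = 0.895), the ubiquitin ligase gene Chfr (0.886) and Grb2 (0.885), which encodes an adaptor of receptor tyrosine kinases.

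Csf2rb2 was at 55.2, 54.8 and 59.6 CPM at P4 in the libraries numbered 1, 3 and 4. At P5 it was at 60.6, 71.8 and 78.2 CPM, and at P6 at 53.8, 69.3 and 68.4. P5 lay above P4 in every library and P6 overlapped with both. None of the differences between marks passed, with log2 values of 0.32 from P4 to P5 (SE 0.13, edgeR adjusted p = 0.198), -0.13 from P5 to P6 and 0.18 from P4 to P6. In diaphragm, Csf2rb2 was at 59.4 and 55.9 CPM in libraries 1 and 7, at 88.5 and 85.4 in libraries 2 and 8, and at 69.6, 95.5 and 68.4 in libraries 3, 9 and 6. Over the tissues, dura ranged from 53.8 to 78.2 CPM with a median of 60.6 and diaphragm from 55.9 to 95.5 with a median of 69.6. The log2 difference was -0.24 (SE 0.12, edgeR adjusted p = 0.161), and without diaphragm libraries 1 and 7 it was -0.37 (edgeR adjusted p = 0.0231). The ratio of Csf2rb to Csf2rb2 was 1.74 to 2.36 in the dura libraries and 1.18 to 3.20 in the diaphragm libraries, with the lowest in library 1 and the highest in library 6.

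The receptor chains that pair with the common beta chain for other cytokines were measured as well. Il3ra, the specific chain of the interleukin-3 receptor, averaged 52.4 CPM in dura and 62.7 in diaphragm, and its log2 difference of -0.26 (SE 0.10, edgeR adjusted p = 0.0764) did not pass. Between P4 and P6 its log2 difference was 0.30 (SE 0.16, edgeR adjusted p = 0.17). Il5ra, the chain for interleukin-5 that eosinophils carry, had 5 counts over the dura libraries and 0 over the diaphragm libraries, which allows up to 0.0189 CPM there. Of these chains, Csf2ra was the one called between marks.

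Csf3r (ENSMUSG00000028859, GRCm38 chromosome 4, 126024550 to 126044440, plus strand), the G-CSF receptor, was higher in dura than in diaphragm. The dura libraries ranged from 59.7 to 88.2 CPM with a median of 71.1, and the diaphragm libraries from 32.7 to 64.5 with a median of 36.2. Library 8 of diaphragm was the one that reached into the dura range. Csf3r was higher in dura, with a log2 difference of 0.77 (SE 0.14, edgeR adjusted p = 0.000597). The call held in all 29 settings tried, with log2 values of 0.66 to 0.90. Of the 7 members, Csf3r was the one whose call between tissues held throughout.

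Within dura, Csf3r was at 59.7, 62.8 and 71.2 CPM at P4 in the libraries numbered 1, 3 and 4. It was at 66.8, 79.0 and 80.7 CPM at P5 and at 63.7, 71.1 and 88.2 at P6. The marks overlapped and none of the differences passed, with log2 values of 0.23 from P4 to P5 (SE 0.14, edgeR adjusted p = 0.415), -0.02 from P5 to P6 (SE 0.14, edgeR adjusted p = 0.951) and 0.21 from P4 to P6 (SE 0.14, edgeR adjusted p = 0.269). In diaphragm, libraries 1 and 7 held 35.6 and 32.7 CPM, libraries 2 and 8 held 47.4 and 64.5, and libraries 3, 9 and 6 held 36.2, 34.7 and 42.7. Libraries 2 and 8, which led the tissue in Csf1r, also led it in Csf3r. They led it in the neutrophil sum too, with 760 and 1032 CPM against 79.2 to 557 in its other libraries. The gelatinase gene Mmp9 made up 99.0% of that sum in libraries 2 and 8. S100a8, Ly6g, Elane, Camp and Ngp had 0 counts there, and S100a9, Mpo, Ltf, Mmp8 and Retnlg averaged 0.208 CPM or less. Cxcr2, a neutrophil chemokine receptor gene, was at 2.49 and 13.7 CPM in these libraries and at 0.045 to 1.80 in the others.

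Csf3r is a neutrophil gene by reputation, so the 12 neutrophil markers were set beside it. Besides Mmp9, each averaged at most 5.14 CPM in either tissue, though single libraries were higher. At P6, S100a8 reached 9.12 CPM and S100a9 10.4. Ly6g had no counts in diaphragm and averaged 0.026 CPM in dura, S100a8 averaged 1.66 CPM in dura and 0.252 in diaphragm, and Cxcr2 0.044 and 2.89. Their sum was 206 to 840 CPM in dura and 79.2 to 1032 in diaphragm, of which the gelatinase gene Mmp9, which macrophages also express, made up 97.7% and 98.9%. Besides Mmp9, the highest value of any marker on the list was 44.9 CPM in dura, for the granule enzyme gene Mpo in a P4 library, and 13.7 CPM in diaphragm, for Cxcr2. In dura, the neutrophil sum was 472 to 697 CPM at P4, 569 to 840 at P5 and 206 to 233 at P6. The part of neutrophils in the Csf3r values was not tested.

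Adgre1 (ENSMUSG00000004730, GRCm38 chromosome 17, 57358691 to 57483527, plus strand) was abundant everywhere and higher in dura. The dura libraries numbered 1, 3 and 4 held 1492, 1549 and 1789 CPM at P4. They held 1745, 1987 and 2116 CPM at P5 and 1657, 1762 and 1780 at P6. The marks overlapped. The log2 differences were 0.28 from P4 to P5 (SE 0.09, edgeR adjusted p = 0.0839), -0.17 from P5 to P6 (SE 0.09, edgeR adjusted p = 0.238) and 0.11 from P4 to P6 (SE 0.09, edgeR adjusted p = 0.366). From P4 to P5 it passed with DESeq2, at 0.28 (adjusted p = 0.0384). With the number as a block in the fit, Adgre1 passed from P4 to P5 and from P5 to P6. With library totals in place of TMM factors, the difference from P4 to P6 was -0.02, as the median of all genes shifted by -0.13.

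In diaphragm, Adgre1 was at 1084 and 1079 CPM in libraries 1 and 7, at 1845 and 1610 in libraries 2 and 8, and at 1180, 1203 and 1117 in libraries 3, 9 and 6. Libraries 2 and 8 were within the dura range and the other 5 below it. Over the tissues, dura ranged from 1492 to 2116 CPM with a median of 1762 and diaphragm from 1079 to 1845 with a median of 1180. Adgre1 was higher in dura, with a log2 difference of 0.43 (SE 0.13, edgeR adjusted p = 0.0174). The call was kept in 26 of 29 settings and lost without diaphragm libraries 1 and 7 (0.34, edgeR adjusted p = 0.0677), without all P5 libraries (0.36, edgeR adjusted p = 0.11) and with dura summed per number (0.45, edgeR adjusted p = 0.19). The genes closest to Adgre1 over the 16 libraries were the antiviral deaminase gene Apobec3 (r = 0.939), the myeloid transcription factor gene Irf8 (0.921) and the lymphoid and macrophage adaptor gene Themis2 (0.921).

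The relatives of F4/80 with EGF-like repeats went the other way between tissues. Adgre5, which encodes CD97, was at 43.8 to 45.8 CPM at P4, 75.9 to 93.1 at P5 and 191 to 200 at P6. In diaphragm it was at 465 to 752 CPM, above every dura library. Adgre5 was lower in dura by a log2 difference of -2.57 (SE 0.34, edgeR adjusted p = 4.36e-05) and higher at P6 than at P4 by 2.13 (SE 0.10, edgeR adjusted p = 3.15e-08). Adgre5 was thus low where Adgre1 was high between tissues. Adgre4 was at 31.6 to 42.2 CPM at P4, 97.5 to 113 at P5 and 110 to 119 at P6. The log2 difference from P4 to P5 was 1.60 (SE 0.13, edgeR adjusted p = 2.92e-05), and the step from P5 to P6 did not pass (0.12, edgeR adjusted p = 0.59). Libraries 2 and 8 were the highest of diaphragm, at 381 and 377 CPM, as for Adgre1, and the tissue difference was -1.23 (SE 0.38, edgeR adjusted p = 0.0244).

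**Figure D5:**
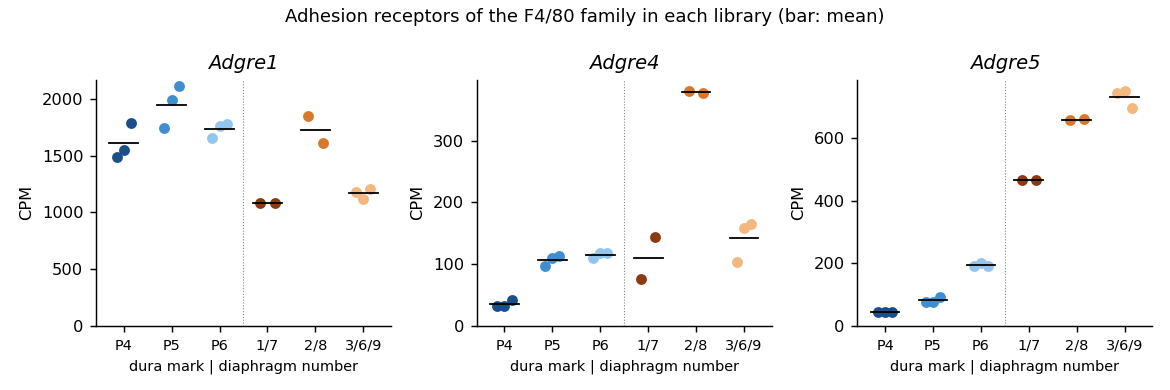
Adgre1, Adgre4 and Adgre5 in CPM (vertical axes, from 0) in every library, by dura mark and diaphragm number, with bars at the means. Adgre5 is at 465 to 752 CPM in diaphragm, above all dura libraries, whereas Adgre1 is lower in 5 of 7 diaphragm libraries than in dura.

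Genes linked to CSF1R signalling, including ones that restrain it, were followed in a list of 23, all tested. Counts of higher and lower genes thus give no direction of signalling. Between P6 and P4, 12 were higher and 2 lower, with a median log2 difference of 0.23, while Csf1r itself was lower. Over all 13239 genes, 2118 were higher and 2285 lower (33.3% called), with a median of 0.00. Between P5 and P4 it was 4 higher and 0 lower (7.35% of all genes called), and between P6 and P5 7 higher and 0 lower (17.4% of all genes). The gene of phospholipase C gamma 2, Plcg2, rose from 68.3 CPM at P4 to 188 at P6 (log2 difference 1.47, SE 0.10, edgeR adjusted p = 7.01e-07). The Src-family kinase gene Fgr rose from 6.55 to 56.3 CPM (log2 difference 3.12, SE 0.23, edgeR adjusted p = 1.01e-06). Both act below several receptors of myeloid cells, not CSF1R alone. Between tissues 2 of the 23 were higher and 6 lower in dura, with a median of -0.10 beside -0.01, where 1465 of 13136 genes were higher and 2007 lower (26.4% called). The lowest adjusted p belonged to Pik3r1, encoding a regulatory subunit of phosphoinositide 3-kinase (log2 difference -1.07, SE 0.10, edgeR adjusted p = 1.54e-06), then Fyn (-1.52, SE 0.22) and the ubiquitin ligase gene Cblb (-0.79, SE 0.15). Fgr had the most negative log2 difference of the list (-2.04, SE 0.54, edgeR adjusted p = 0.00976).

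JAK and STAT genes and their targets, which the GM-CSF and G-CSF receptors use, made up a list of 12. Between tissues 1 was higher and 7 lower in dura, beside 26.4% of all genes called, with a median log2 difference of -0.60 beside -0.01. Stat3 averaged 159 CPM in dura and 345 in diaphragm (log2 difference -1.12, SE 0.12, edgeR adjusted p = 5.28e-06). Cish, a feedback inhibitor induced by STAT5, averaged 11.1 and 30.6 CPM (-1.47, SE 0.27, edgeR adjusted p = 0.000886). Bcl2l1, a survival gene, was the member of the list that was higher in dura (0.42, SE 0.08, edgeR adjusted p = 0.000714). Between P5 and P4, 3 of 12 were higher, namely Mcl1, Socs3 and Pim1, beside 7.35% of all genes called. Between P6 and P5 only Socs3 passed, and it fell by 0.47 (SE 0.09, edgeR adjusted p = 0.00259). Between P6 and P4, Mcl1 and Tyk2 were higher and Jak1 lower, which is 3 of 12 beside 33.3% of all genes.

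Of 9 transcription factor genes known to act on Csf1r, 3 were higher and 1 lower at P6 than at P4, beside 33.3% of all genes called. Maf fell by 1.06 (SE 0.10, edgeR adjusted p = 5.54e-06), from 1450 to 694 CPM. Spi1 and Cebpa were among the higher genes. The drop in Maf lay between P5 and P6 (-1.08, SE 0.10, edgeR adjusted p = 1.26e-05), the step at which Csf1r was lower. In diaphragm, mean Maf was 879 CPM in libraries 1 and 7, 852 in libraries 2 and 8 and 387 in libraries 3, 6 and 9. Mean Csf1r in these sets was 3589, 4958 and 3295 CPM. A link between Maf and Csf1r was not tested. Between P5 and P4, 2 were higher, Irf8 among them, and 0 lower. Between P6 and P5, 1 was higher and 2 lower, the latter being Maf and Cebpb. Between tissues, 2 of the 9 were higher and 5 lower in dura, beside 26.4% of all genes called, with a median of -0.28 beside -0.01, and Runx1 (-1.09, SE 0.14, edgeR adjusted p = 3.32e-05) and Ets2 (-0.96, SE 0.13, edgeR adjusted p = 3.56e-05) were among the lower. The list counts are descriptions and single out no list from the rest of the genes.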

How the data were processed

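Macrophages sorted in bulk from dura and diaphragm were sequenced, per the labels' protocols, with a kit that keeps no strand and reads of 75 bases from 1 end. The authors deposited a table of counts per gene. GRCm38, featureCounts, STAR (2.4.0j) and DESeq2 (1.20.0) appear in the submitters' processing notes without roles. The values are whole and their totals unequal, so they were read as raw counts. Symbols matched 40254 of 41388 genes. GENCODE vM21 gave positions and exon lengths.

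Diaphragm columns with a prefix were summed with the column of the same number (chi-square per degree of freedom 1.008 to 1.169 in 6 pairs, at least 10.6 in the other 108). Columns with under 100000 counts were left out. Genes were filtered with filterByExpr, scaled with TMM and tested two-sided with the quasi-likelihood test of edgeR (version 4.0.16 under R 4.3.3; Benjamini-Hochberg, 0.05) without covariates, once for tissue and once for the 9 dura libraries with 3 marks. Levels are CPM with TMM factors over all 16 libraries. Alternatives were RLE, upper-quartile and no factors, no filter, DESeq2 1.42.0, limma-voom (limma 3.58.1), left-out libraries, summed dura libraries, a single run per library and a replicate block. Because the columns match no subset, subsets C1 to C3 were not compared.

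On simulated counts, the test recovered 56.8% of 95 genes changed by a log2 of 1 between tissues (12868 genes) and 52.6% of 97 between P5 and P4 (12977 genes). Only 200 genes were changed in each simulation, while 3472 and 973 genes were called in the data. The adjusted threshold depends on that number, so these rates do not give the power of the tests on the data.

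The members and lists were chosen with earlier results of these data known. Named genes were the members, all measured ligands and partner receptor chains, up to 3 called genes of each list with the lowest adjusted p per comparison, and the 3 genes most correlated with Csf1r, Adgre1, Csf2rb and Csf1. Some genes that this rule takes are not reported here. Marker lists were summed as CPM. Cebpa, Ccr2 and single marker genes were named outside this rule, after their values were seen. Other marker lists were summed too. The lymphocyte sum was 0.47 to 15.2 CPM, the mesothelial sum 0 to 44.1 and the osteoclast sum 71.7 to 410 over the libraries. The muscle sum was 1.40 to 12.6 CPM in dura and 127 to 283 in diaphragm.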

Additional observations from a re-analysis of the deposited data

How the results depend on the processing

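Of 406 member fold changes recomputed under other settings, 358 kept their direction and side of the threshold, 24 passed only in the alternative, 20 no longer passed and 4 turned direction. The turned values were small and not called: Adgre1 between P6 and P4 was -0.019 with library totals. Without 1 number each, Csf1r between P5 and P4 was -0.037 to 0.009 and Csf3r between P6 and P5 was -0.111 to 0.037. Library totals shifted the median of all genes by 0.14 between tissues and by -0.13 for P5 and P6 against P4. Of the genes called between tissues, 42.2% were higher in dura with TMM, 54.3% after upper-quartile scaling and 61.0% by library totals. It was 42.0% and 22.2% for P5 against P4, and 48.1% and 34.8% for P6 against P4, with TMM and library totals.

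Genes called between tissues numbered 3472, but 1259 with dura summed per number and 2143 without P5. Members called there numbered 3, but 5 with DESeq2, 1 with dura summed and 1 without P5, and 2 to 4 when single libraries were left out. Between P5 and P4, 973 genes and 1 member were called. These became 1587 genes and 3 members with no filter, 3 members with DESeq2, 2 with limma-voom and 2 with library totals. When the libraries of 1 number were left out, they were 285 to 875 genes and 0 to 1 members. The same omissions gave 821 to 2312 genes (2299 with all) and 1 to 2 members between P6 and P5, and 2372 to 4560 genes (4403 with all) between P6 and P4, with number 3 giving the fewest in each. The cause was not tested, beyond the fewer libraries in these fits.

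With the number as a replicate block, 1572 genes and 3 members were called between P5 and P4, 3036 and 3 between P6 and P5, and 5161 and 4 between P6 and P4. The block added Csf1 and Adgre1 between P5 and P4, Adgre1 between P6 and P5, and Csf2rb between P6 and P4. Residuals of same-numbered libraries correlated at -0.005 to 0.171, over 0.1 in 4 of 9 pairs, and those of other pairs at -0.176 to 0.132, over 0.1 in 1 of 18. The best match was the own number in 11 of 18 cases. Csf1r, Adgre1 and Csf3r rose in the order of numbers 1, 3 and 4 at every mark, and Csf1 was highest in number 3 at every mark. These are hints from the data that numbers share something. Not every pair was over 0.1 and no label says what a number marks, so the main fits did not treat the libraries as paired. Those fits take no account of what the numbers may share, and the calls that the block added depend on that choice. Csf1 lies at 5.02 to 58.5 CPM, with 60 to 1289 counts per library. Its fold changes had SEs of 0.33 to 0.38, the largest of the members in each comparison. The cause of this low precision was not tested.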
